A study of Mus musculus with 12 samples.

Results

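The inflammasome and the receptors of the interleukin-1 (IL-1) family were followed through 10 listed genes in microglia, the resident macrophages of the brain, from the hippocampus of male mice at postnatal day 28. The genes were chosen by name, and 8 of the 10 were found among the 545 endogenous genes of the count table. They were Casp1, Il18, Il1r1, Il1rl1, Il1rap, Il18r1, Il1r2 and Il1rn, while Pycard and Nlrp3 were not analysed here. Of the 8 genes, 5 lay above background in all 12 samples and were tested, and 3 (Il18r1, Il1r2 and Il1rn) lay at or below it in most samples and were not. The study compared 6 control pups with 6 pups exposed to brief daily separation (BDS), which were parted from the mother for 15 min a day on postnatal days 1 to 21. All were male pups of the strain labelled Balbc, each from a different litter per the submitters' design text, and the labels name no transgene, drug or other treatment in either group. Cells had been enriched on a Percoll gradient and sorted, and their RNA was counted with a NanoString nCounter immune panel, which reads 1 fluorescent barcode per captured molecule. The sort markers and the handling of the control litters are not given in the sources used here. Each sample is a bulk pool, so fewer cells of a type and less RNA per cell cannot be told apart.

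An inflammasome is a protein platform that forms when a sensor such as Nlrp3 meets a danger signal and, through the adaptor encoded by Pycard, recruits pro-caspase-1. Active caspase-1, the product of Casp1, cuts the precursors of interleukin-1 beta and interleukin-18 into their secreted forms. Interleukin-1 binds Il1r1, interleukin-33 binds Il1rl1 (also called ST2), and both receptors need the shared chain Il1rap to signal through Myd88 and the Irak kinases. Il18r1 is the binding chain for interleukin-18. Il1r2 is a decoy that binds interleukin-1 without signalling, and Il1rn encodes the secreted antagonist of Il1r1. In the brain, microglia are a main source of interleukin-1, Il1r1 is known best from endothelium, and Il1rl1 lets microglia respond to interleukin-33 from other glia.

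Sequence upstream of the start of transcription is shown for the protease and one of its substrates (Casp1 and Il18), for the shared receptor chain, and for Il1rl1, whose 2 starts are known to serve different cell types. Each window holds the 250 bases before a RefSeq start, on the plus strand of GRCm38.p6, at chr9:5298267-5298516 for Casp1, chr9:50554450-50554699 for Il18, chr16:26581455-26581704 for Il1rap, and chr1:40429320-40429569 and chr1:40439379-40439628 for the first and second starts of Il1rl1. Capitals mark a PU box (GAGGAA, the core bound by the macrophage factor PU.1) or a GATA motif (TGATAA or AGATAA), searched on both strands.
Casp1: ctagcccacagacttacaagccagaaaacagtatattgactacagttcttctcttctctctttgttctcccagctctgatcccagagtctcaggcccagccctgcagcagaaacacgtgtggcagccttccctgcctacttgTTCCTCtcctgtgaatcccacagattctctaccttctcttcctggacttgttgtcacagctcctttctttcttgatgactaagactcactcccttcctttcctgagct
Il18: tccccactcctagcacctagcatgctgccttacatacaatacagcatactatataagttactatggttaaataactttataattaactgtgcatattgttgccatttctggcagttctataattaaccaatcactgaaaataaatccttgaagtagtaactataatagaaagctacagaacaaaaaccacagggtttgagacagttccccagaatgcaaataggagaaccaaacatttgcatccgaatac
Il1rap: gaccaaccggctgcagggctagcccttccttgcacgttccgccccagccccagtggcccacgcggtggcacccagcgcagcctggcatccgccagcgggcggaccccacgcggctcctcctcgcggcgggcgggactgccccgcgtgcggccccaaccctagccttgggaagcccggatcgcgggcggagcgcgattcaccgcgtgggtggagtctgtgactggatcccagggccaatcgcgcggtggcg
Il1rl1 first start: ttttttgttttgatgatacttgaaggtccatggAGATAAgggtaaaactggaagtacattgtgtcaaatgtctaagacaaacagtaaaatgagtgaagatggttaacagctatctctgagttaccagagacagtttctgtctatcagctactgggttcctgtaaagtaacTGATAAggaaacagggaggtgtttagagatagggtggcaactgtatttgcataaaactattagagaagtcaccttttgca
Il1rl1 second start: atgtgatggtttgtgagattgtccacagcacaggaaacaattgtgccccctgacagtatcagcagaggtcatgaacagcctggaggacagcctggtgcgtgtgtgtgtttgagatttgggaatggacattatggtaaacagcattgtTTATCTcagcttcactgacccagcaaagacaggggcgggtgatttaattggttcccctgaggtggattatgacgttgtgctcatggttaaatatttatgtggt
The Casp1 window held 1 PU box, whose first base lay 108 bases before the start, and the other 4 windows held 0. The 2 Il1rl1 windows held 2 and 1 GATA motifs and the other 3 held 0. Among 32851 windows of the same length, 23.3% held a PU box and 16.6% a GATA motif, so these matches are common letters and describe only the windows shown. The windows also differed in base composition, from 35.6% G and C for Il18 to 74.4% for Il1rap. On chromosome 1 the genes Il1r2, Il1r1, Il1rl2, Il1rl1, Il18r1 and Il18rap follow each other in this order among protein-coding genes, and 4 of these 6 belong to the 10 listed. The count table does not split Il1rl1 by start.

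Total counts ran from 893936 to 1409376 in the control samples and from 641756 to 1171355 in the BDS samples. Counts were divided by a factor from 6 housekeeping genes, and the result is called a normalized count. The factor was lowest in BDS 21, BDS 25 and BDS 55, at 0.59, 0.628 and 0.827, against 0.847 to 1.42 in the other 9 samples. The same 3 samples had the highest ratios of Rpl19 to Polr2a counts, a pair of housekeeping genes not used in the factor, at 0.465 to 0.79 against 0.113 to 0.267. Background was set in each sample at the mean plus 2 SD of the 8 negative-control probes, and these thresholds lay between 15.3 and 21.8 counts. The median log2 fold change (BDS over control) of all 357 genes tested was -0.10, so a gene at 0 lay above the panel's middle. Each probe has its own efficiency, so levels were compared between samples and not between genes.

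No gene of the group passed the adjusted threshold of 0.05 in the edgeR quasi-likelihood test (0 of 5 tested), where 0% of the 357 genes did. At an unadjusted p under 0.05 the group also had 0 of 5 in edgeR, against 11.5% of all genes lower and 0.84% higher in BDS. DESeq2 with the same factors called 0 of the 5 as well, and 0 of them at an unadjusted p under 0.05. All 5 had log2 fold changes below 0, as had 66.1% of the panel, and their median was -0.27. In no gene of the 5 did all BDS samples lie below every control, which 1.12% of the panel did, or above every control, which 0% did.

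**Figure D1:**
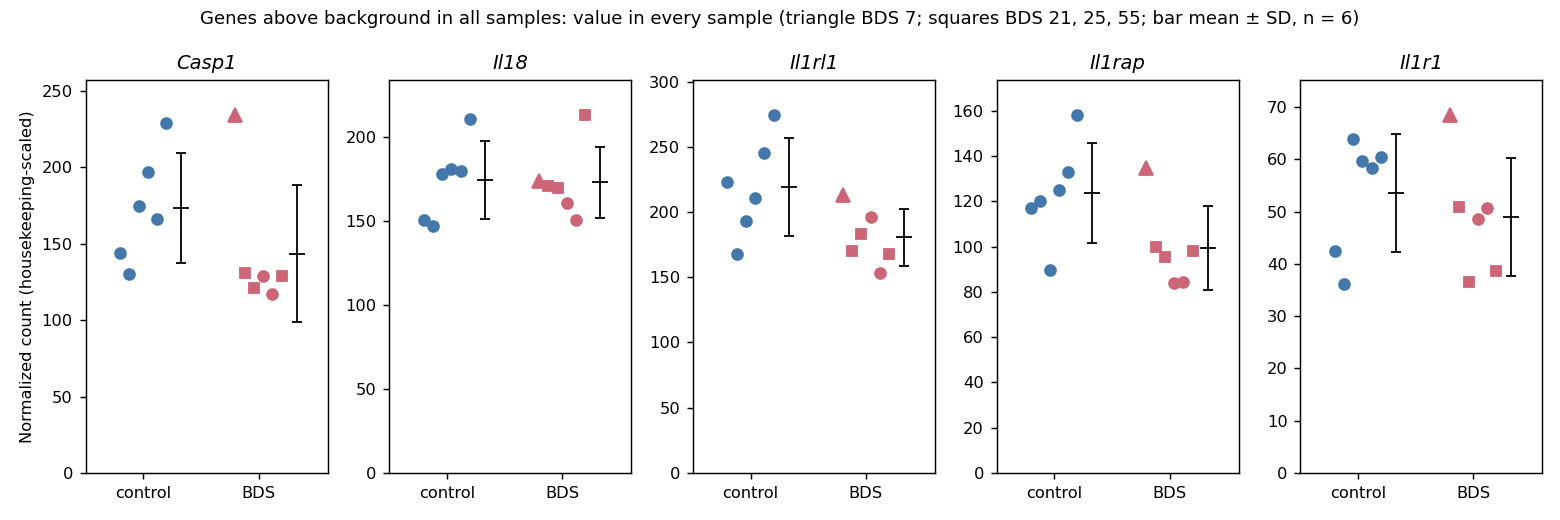
Normalized counts (vertical axes, starting at 0) of Casp1, Il18, Il1rl1, Il1rap and Il1r1 in each of 6 control and 6 BDS samples, with bars for the mean ± SD. The triangle is BDS 7, which was the highest BDS sample for every gene except Il18, and the squares are BDS 21, BDS 25 and BDS 55.

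Casp1, the protease of the inflammasome, was unevenly spread among the BDS samples. Control samples lay between 130 and 229 normalized counts with a median of 170, and BDS samples between 117 and 234 with a median of 129. Of the 6 BDS samples, 5 fell in the narrow range of 117 to 131, 4 of them below the lowest control, while BDS 7 lay above every control. The means were 173 ± 36 in controls and 143 ± 45 in BDS (SD, n = 6). By edgeR's quasi-likelihood test the log2 fold change was -0.27 (SE 0.19, 95% interval -0.68 to 0.14), with an adjusted p of 0.507 and an unadjusted p of 0.179. Without BDS 7, a sample singled out by these same values, it was -0.47, with an unadjusted p of 0.00715 and an adjusted p of 0.0759 in edgeR. Without BDS 21, BDS 25 and BDS 55 it was -0.12, and with the housekeeping count as a covariate -0.10 (edgeR, adjusted p = 0.974 and 0.936). The first of these fits kept BDS 7 beside BDS 35 and BDS 43, which had 129 and 117 normalized counts. Over all alternatives its adjusted p in these model fits ran from 0.0759 to 0.974. The coefficient of variation was 20.8% in controls and 31.3% in BDS, where counting alone gives about 7.8% at the mean count. The other 5 BDS samples had a mean of 125 ± 6.15 (SD, n = 5), from raw counts of 76 to 145. That spread is smaller than counting alone gives at such counts, so their narrow range does not measure how alike they were.

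Il18, a cytokine precursor that caspase-1 cuts, had nearly the same level in both groups. Control samples ran from 147 to 211 normalized counts with a median of 179, and BDS samples from 151 to 213 with a median of 171. The groups overlapped over almost their whole range, and 0 BDS samples lay below the lowest control. The means were 175 ± 23.5 and 174 ± 21.1 (SD, n = 6), and the log2 fold change was -0.01 with an SE of 0.13 (adjusted p = 0.945 by edgeR). Its 95% interval of 0.824-fold to 1.19-fold still allows a modest change in either direction. Its sign turned to 0.09 with TMM scaling, which scales each sample to the tested genes.

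Because both counts come from the same sample, the Casp1 to Il18 ratio needs no scaling. It lay between 0.883 and 1.09 in the controls, with a median of 0.968, and between 0.608 and 1.34 in BDS, with a median of 0.767. The ratio was below the lowest control in 5 of 6 BDS samples, at 0.608 to 0.799, and above the highest control in BDS 7. The mean log2 difference was -0.29 (exact permutation test, two-sided, 924 arrangements, p = 0.121; adjusted p = 0.364 over 3 ratios; smallest possible p 0.00216). Without BDS 7, a sample singled out by these same values, the difference was -0.43 (exact permutation test, 462 arrangements, p = 0.00216, the smallest they can give; adjusted p = 0.00649). Without BDS 21, BDS 25 and BDS 55 it was -0.07. The BDS samples kept there were BDS 7 at 1.34, and BDS 35 and BDS 43 at 0.799 and 0.771, below the lowest control. The 3 ratios were chosen after the values had been seen. The ratio of Il1rl1 to its partner chain Il1rap was 1.78 ± 0.249 in controls and 1.84 ± 0.264 in BDS, and that of Il1r1 to Il1rap 0.445 ± 0.144 and 0.495 ± 0.0903 (SD, n = 6). Neither differed beyond the spread between samples (exact permutation tests, adjusted p = 0.716 and 0.581).

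**Figure D2:**
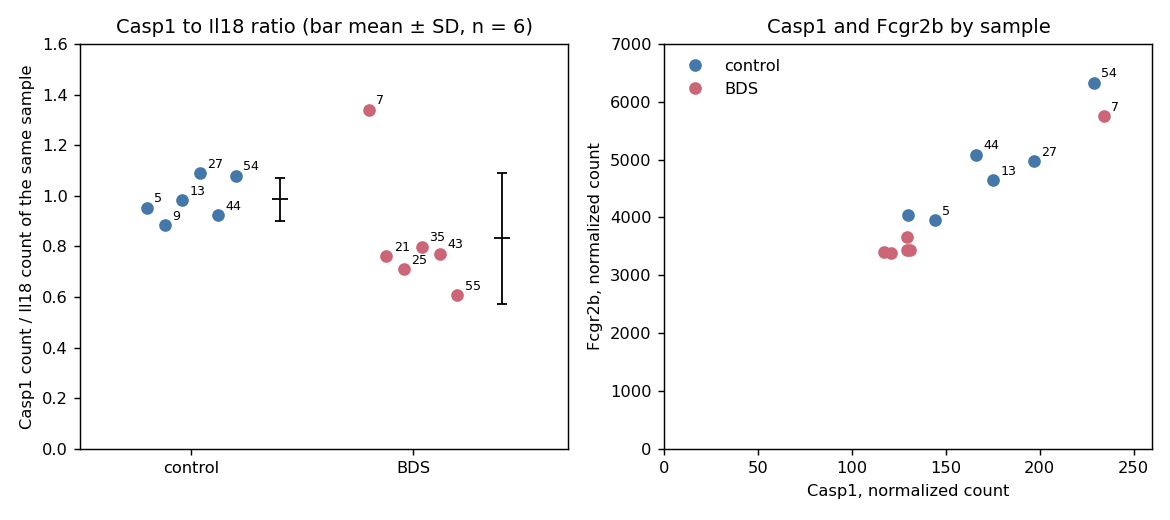
Left, the count of Casp1 divided by the count of Il18 in each sample, numbered by replicate, with bars for the mean ± SD. Right, normalized counts of Casp1 against Fcgr2b, with the samples above 140 counts of Casp1 numbered. BDS 7 lies above all controls at left, and at right beside control 54, away from the other BDS samples.

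Il1rl1 encodes the interleukin-33 receptor ST2, and in most BDS samples its level was toward the low end of the controls. Control samples ran from 168 to 274 normalized counts with a median of 217, and BDS samples from 153 to 213 with a median of 176. All 6 BDS samples lay below the control mean, though only 1 lay below the lowest control, so the groups overlapped. The means were 219 ± 37.6 and 180 ± 21.6 (SD, n = 6). In edgeR the log2 fold change was -0.28 with an SE of 0.13 and an adjusted p of 0.38 (unadjusted 0.0551). By p it stood behind 48 of the 357 genes. With TMM scaling it was -0.18 (edgeR, adjusted p = 0.542; from 0.143 to 0.953 over all alternatives).

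The shared co-receptor chain Il1rap had the lowest fold change of the 5 genes. Control samples lay between 89.9 and 158 normalized counts with a median of 123, and BDS samples between 84.1 and 135 with a median of 96.7. Of the BDS samples, 5 had 84.1 to 100 counts and BDS 7 had 135, while control 13 lay among the BDS samples at 89.9. The means were 124 ± 22.3 and 99.5 ± 18.7 (SD, n = 6), and edgeR gave a log2 fold change of -0.32 with an SE of 0.16 and an adjusted p of 0.393 (unadjusted 0.0639). Without BDS 7 the log2 fold change was -0.43 and without control 13 it was -0.40 (edgeR, unadjusted p = 0.0118 and 0.0234, adjusted p = 0.0939 and 0.361). Both samples were singled out by these same values. Without control 54 it was -0.235, and without BDS 21, BDS 25 and BDS 55 -0.30 (edgeR, unadjusted p = 0.161 and 0.199, adjusted p = 0.547 and 0.9). With TMM scaling it was -0.23 (edgeR, adjusted p = 0.537; from 0.0939 to 0.9 over all alternatives).

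Il1r1, the signalling receptor for interleukin-1, was counted in every sample at 1.15 to 4.6 times the background threshold. Control samples ran from 36.2 to 63.9 normalized counts with a median of 59, and BDS samples from 36.6 to 68.4 with a median of 49.6. The groups overlapped fully, with the highest value in BDS 7 and the lowest in control 9. The means were 53.5 ± 11.3 and 49 ± 11.4 (SD, n = 6), with -0.12 (SE 0.19) between them on the log2 scale (adjusted p = 0.745 by edgeR). Its sign turned to 0.06 without BDS 21, BDS 25 and BDS 55. At its mean raw count, counting error alone gives a coefficient of variation of about 13.8%, and it is larger in the samples with the fewest counts, which were 23, 30 and 32 in BDS 25, BDS 21 and BDS 55.

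**Figure D3:**
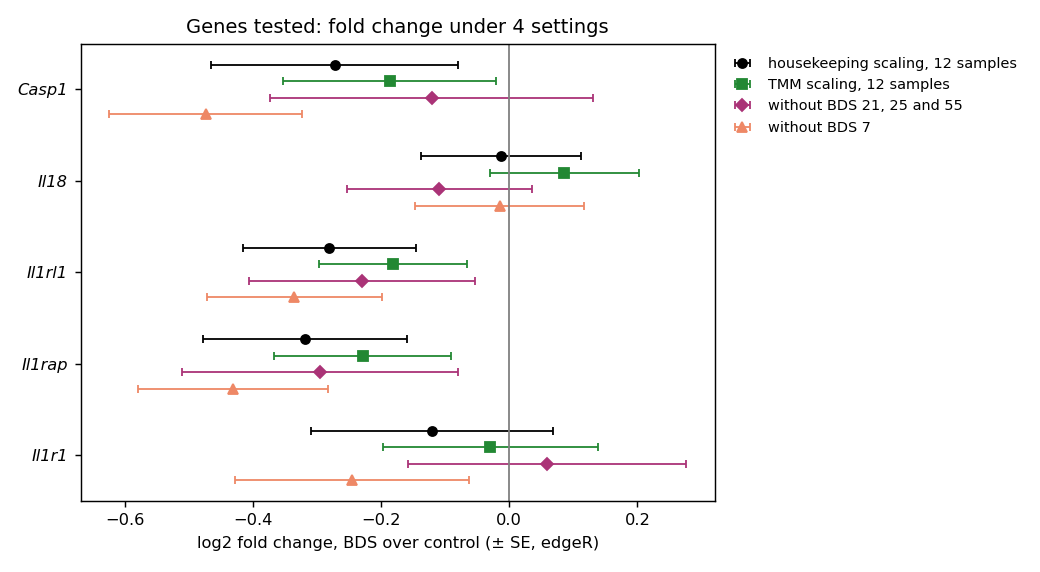
Log2 fold changes (BDS over control, horizontal axis) of the 5 genes tested, with bars of ± 1 SE, for the housekeeping scaling, TMM scaling, and the fits without 3 BDS samples and without BDS 7. Casp1, Il1rl1 and Il1rap lie below 0 in all 4 settings, Casp1 between -0.47 and -0.12, while Il18 and Il1r1 change sign among them.

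The decoy receptor, the antagonist and the interleukin-18 receptor chain were not well above background. Il1r2, the decoy, had 12 to 18 raw counts in controls and 5 to 16 in BDS, and exceeded the threshold in 0 of 12 samples. Il18r1 had 11 to 17 raw counts in controls and 7 to 17 in BDS, also above the threshold in 0 of 12. After scaling, Il18r1 reached 27.1 in BDS 25, a sample with a small scaling factor, from a raw count of 17 that lay under its threshold of 20. Il1rn, the antagonist, exceeded the threshold in 2 of 12 samples, control 27 with 30 raw counts and control 54 with 39, the controls with the 2 largest totals. Its other 10 samples held 6 to 20 counts. No fold change is given for these 3 genes, since most of their counts lay under the threshold.

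**Figure D4:**
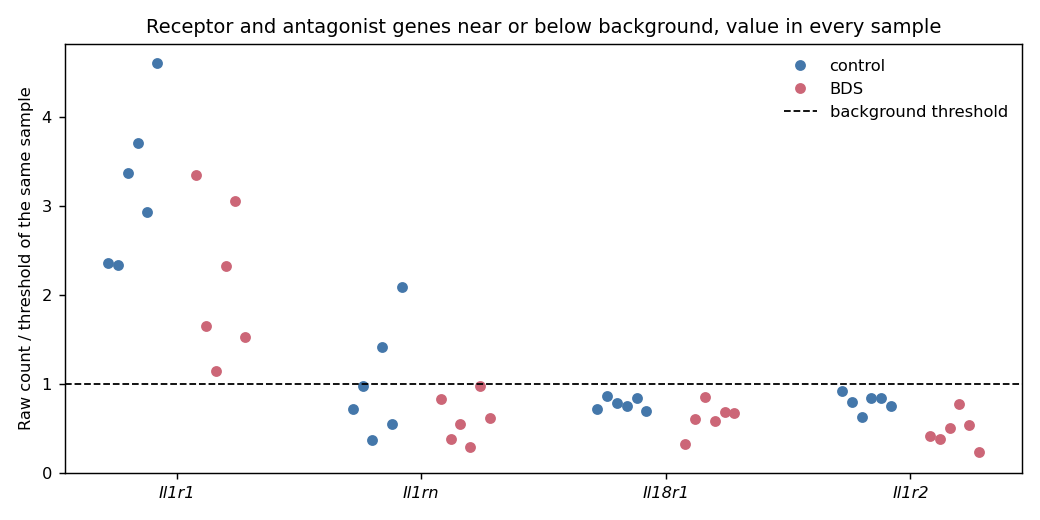
Raw counts of Il1r1, Il1rn, Il18r1 and Il1r2 in each sample, divided by the background threshold of the same sample (dashed line at 1). Il1r1 lies above the line in all 12 samples, Il1rn in 2, and Il18r1 and Il1r2 in 0.

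In the authors' deposited table the fold (BDS over control) was 0.84 for Casp1, 1.00 for Il18, 0.83 for Il1rl1, 0.81 for Il1rap and 0.93 for Il1r1. The same deposited table gives unadjusted p-values of 0.245, 0.959, 0.0602, 0.068 and 0.556 for these genes in that order. It lists Il18r1 and Il1rn above background in 17% of samples and Il1r2 in 0%.

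Of the other IL-1 family ligands, 3 of 8 listed were measured. Il1a, an alarmin form of interleukin-1, averaged 7065 ± 1943 normalized counts in controls against 5931 ± 779 in BDS, and Il1b, a substrate of caspase-1, averaged 166 ± 39.9 against 133 ± 37.3 (SD, n = 6). Their log2 fold changes were -0.25 ± 0.15 and -0.33 ± 0.19 (SE; edgeR, adjusted p = 0.435 for both). Il1a moved to -0.09 without control 44, and Il1b to -0.51 without BDS 7 (edgeR, adjusted p = 0.747 and 0.0815) and to -0.17 without BDS 21, BDS 25 and BDS 55. For Il1b, 5 of 6 BDS samples lay below the lowest control of 124, and BDS 7, singled out by these same values, stood at 208. Il33 was above background in 1 of 12 samples and was not tested.

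Among 6 other receptors and binding proteins 3 were measured, and 0 of the 2 tested had a p under 0.05. Il1rl2, the interleukin-36 receptor, which also pairs with Il1rap, had 238 ± 30.7 and 197 ± 39.7 (SD, n = 6; log2 fold change -0.27 ± 0.15, SE; edgeR, adjusted p = 0.408). BDS 7 was again its highest BDS sample, at 262. Sigirr, an inhibitory receptor of the family, had 23.3 ± 5.7 and 26.4 ± 7.83, close to background. Il18rap, the second chain of the interleukin-18 receptor, was above background in 0 of 12 samples, as Il18r1 was.

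The signalling chain below the receptors was measured with 14 of 17 listed genes, all tested. Of these, 4 were lower at an unadjusted p under 0.05, as were 11.5% of all genes, and 0 higher, with 0 past the adjusted threshold in edgeR, and 11 of 14 had log2 fold changes below 0. The median was -0.17, against -0.10 for all genes tested, and without BDS 21, BDS 25 and BDS 55 it was -0.05, against -0.09. With 1 sample left out, the number with an unadjusted p under 0.05 was 0 without BDS 21 or BDS 55 and 1 without BDS 25. It was 2 without control 5, 27, 44 or 54, and 3 without control 13 or BDS 35. It was 4 without BDS 43, 5 without control 9 and 6 without BDS 7. The kinase Irak2 averaged 5550 ± 585 normalized counts in controls against 4871 ± 440 in BDS, and the ubiquitin ligase Traf6 had 1546 ± 123 and 1286 ± 225 (SD, n = 6). Nfkb1, a subunit of the transcription factor NF-kB, had 3765 ± 191 and 3162 ± 510, and Tnfaip3, an inhibitor of the pathway, had 992 ± 218 and 760 ± 185. Their log2 fold changes ran from -0.19 for Irak2 to -0.38 for Tnfaip3 (edgeR, adjusted p = 0.337 for Nfkb1, 0.376 for Traf6 and 0.38 for both Irak2 and Tnfaip3). With TMM scaling 8 of 14 were below 0 and 0 had a p under 0.05, and without BDS 21, BDS 25 and BDS 55 10 of 14 were below 0 and 0 had a p under 0.05. In that last fit Nfkb1 stood at -0.08, Traf6 at -0.06, Irak2 at -0.10 and Tnfaip3 at -0.13. Of 18 genes listed as other sensors, caspases and linked proteins, 3 were measured and 2 tested, neither of them a sensor. Casp8 had a log2 fold change of -0.07 and Card9, an adaptor, 0.17 (edgeR, adjusted p = 0.745 and 0.513). Those 2 signs turned under other settings, Casp8 to 0.03 with TMM scaling and Card9 to -0.06 without BDS 21, BDS 25 and BDS 55.

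For 4 of the 5 genes, the other tested gene whose counts followed it most closely over the 12 samples is given, chosen by the smallest SD of the log2 ratio of counts, a measure that needs no scaling. For Casp1 it was Fcgr2b, the inhibitory Fc receptor, with an SD of 0.10, where counting error alone gives about 0.13 and the median over 356 genes was 0.39. The Fcgr2b to Casp1 ratio was 28.1 ± 2.34 in controls and 27.2 ± 1.69 in BDS (SD, n = 6). Fcgr2b was also high in BDS 7, at 5752 normalized counts against 3389 to 3666 in the other 5 BDS samples and 3951 to 6329 in controls. Il18 was followed most closely by Casp8 (SD 0.12), Il1rl1 by Adal (0.12) and Il1r1 by Mr1 (0.15). Each is the closest of 356 genes and is low by that choice. Among the 5 themselves, the log2 ratio varied least between Il1rap and Il1rl1 (SD 0.19) and most between Il1rap and Il1r1 (0.35).

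The labelled cell type was checked against 8 measured microglial markers, which were above background in all 12 samples and summed to 205086 to 228932 normalized counts in controls and 203521 to 270379 in BDS. Of the endothelial markers 3 of 7 were measured and all tested, with sums of 989 to 1396 in controls and 959 to 1344 in BDS. Cdh5, the endothelial cadherin, had 149 ± 23.9 and 120 ± 18 (SD, n = 6; log2 fold change -0.32, edgeR, adjusted p = 0.38), and its log2 fold change was -0.16 without BDS 21, BDS 25 and BDS 55. The other endothelial markers, Pecam1 and Icam2, had log2 fold changes of -0.15 and 0.04 (edgeR, adjusted p = 0.544 and 0.927). Of 7 mast cell and innate lymphoid markers, in which Il1rl1 is also known, 6 were measured, summing to 4889 to 5989 in controls and 4366 to 5492 in BDS, nearly all of it Il7r. Il7r was above background in 12 of 12 samples and Il13 in 9, while Kit, Fcer1a, Gata3 and Il5 were in 0. Of 7 markers of neutrophils, cells that carry Il1r2, 5 were measured. They summed to 3215 to 3830 in controls and 3174 to 3792 in BDS, nearly all of it Csf3r. Csf3r was above background in 12 of 12 samples, S100a8 in 6 and S100a9 in 1, while Cxcr2 and Camp were in 0. Of 12 markers of T cells and NK cells, which carry Il18r1, 9 were measured and 3 tested. They summed to 143 to 435 in controls and 133 to 207 in BDS. Prf1 was above background in 12 of 12 samples, Tbx21 in 7, Cd4 in 6 and Cd8a in 1. Cd3d, Cd3e, Cd247, Eomes and Gzmb were above background in 0 samples. Of 6 markers of blood monocytes and border macrophages 3 were measured, with sums of 298 to 513 and 265 to 469. Ccr2, the monocyte receptor, had 389 ± 78.9 and 301 ± 74.9 (SD, n = 6; log2 fold change -0.36, edgeR, adjusted p = 0.38), with 445 in BDS 7 and a log2 fold change of -0.16 without BDS 21, BDS 25 and BDS 55, and Cd163 was above background in 0 samples. The 5 B cell markers summed to 178 to 286 in controls and 164 to 361 in BDS, with Pax5 above background in 0 samples, and the 2 measured neural and oligodendrocyte markers, Icam5 and Mbp, to 127 to 251 and 117 to 189. The part of these other cells in the values of Casp1, Il1rl1, Il1rap and Il1r1 was not tested.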

How the data were processed

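Sorted microglial RNA of 6 control and 6 BDS samples was made into cDNA and passed through 5 PCR rounds before hybridization, per the labels' protocols. The deposited raw values are whole counts of barcodes, not normalized by the authors. A second deposited table gives normalized values, which the authors scaled by positive-control probes and housekeeping genes, per the submitters' design text, and which are treated here as scores. Per the file headers it also holds the percent of samples over background, a fold (ratio) and an unadjusted p-value. The software used to read barcodes was not named there.

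For each sample, the geometric mean count of 6 housekeeping genes (Gapdh, Tbp, Sdha, Oaz1, Alas1, Polr1b), relative to its mean over samples, gave the scaling factor. Genes over background in 40% or more of the samples (5 of 12) were kept. All 357 such genes were fitted together in edgeR 4.0.16 under R 4.3.3 by the quasi-likelihood test without covariates, and p-values were adjusted by Benjamini-Hochberg. The SE is the log2 fold change divided by the root of F. The code was tested on simulated data. Counting errors cover counting alone, since PCR copies are not independent molecules.

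Genes named outside the 10 were those of the pathway lists with an unadjusted p under 0.05, the 2 of smallest p per list, Il1b, the closest gene to each of the 5 tested (that of Il1rap is not reported here), and markers near background. Cdh5, Pecam1, Icam2, Ccr2, Il7r, Csf3r, Icam5 and Mbp were named after their values were seen. The 10 genes and the lists were chosen with earlier results of these data known. All 8 genes found matched the same symbol by accession in the GRCm38.p6 RefSeq gene table, and the sequence windows come from the RefSeq promoter table of that build, while the files themselves name no build. Alternatives were other scalings, DESeq2 1.42.0, limma 3.58.1 on log2 values of the counts or of the deposited scores, other filters, background subtraction, a covariate and samples left out. Those for the 3 ratios were chosen after seeing the data.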

Additional observations from a re-analysis of the deposited data

Results flagged for a closer look

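Among 52 groups of 6 samples examined, 7 held a sample that stood far from the other 5, where chance does this in about 1 of 20 groups. BDS 7 accounted for 6 of the 7. These 7 do not cover every wide spread. Among controls, Nfkbia ran from 2264 to 12343 normalized counts and S100a9 from 5.72 to 97.8, and neither is among the 7. BDS 7 was high in Casp1 (234 normalized counts), Il1rap (135), Il1b (208), Fcgr2b (5752) and Ccr2 (445), and in the Casp1 to Il18 ratio (1.34). These values of BDS 7 share 1 sample and are not independent of each other, and Fcgr2b was picked for following Casp1. Control 54 was high in Cdh5 (195). What set BDS 7 apart was not tested.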

How the results depend on the processing

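No paired analysis was possible because the groups share no replicate number. Over 25 alternatives, 12 of them leaving out 1 sample, 115 of 125 combinations of a tested gene and an alternative kept their direction, 10 turned, and 0 passed the adjusted threshold. Casp1, Il1rl1 and Il1rap stayed below 0 in all 25, Casp1 between -0.70 (positive-control scaling) and -0.10 (housekeeping count as covariate). Il18 turned to 0.0857 with TMM scaling, 0.00249 with the 5 housekeeping genes without Sdha, 0.0717 with DESeq2's own size factors, 0.0072 on the deposited scores and 0.0147 with the covariate, and ranged from -0.0799 to 0.0501 with 1 sample left out. Il1r1 turned to 0.0171 with the covariate and to 0.0587 without BDS 21, BDS 25 and BDS 55. Leaving out 1 sample, the log2 fold changes ran from -0.47 to -0.18 for Casp1, -0.35 to -0.21 for Il1rl1, -0.43 to -0.24 for Il1rap and -0.25 to -0.06 for Il1r1. The genes of the 5 with an unadjusted p under 0.05 numbered 0 to 3, with 3 without BDS 7. With 1 sample left out, the log2 difference of the Casp1 to Il18 ratio ran from -0.43 to -0.21 (adjusted p 0.00649 to 0.584 by exact permutation), with only the fit without BDS 7 past the threshold, a sample singled out by these same values. It was -0.07 (adjusted p 0.762) without BDS 21, BDS 25 and BDS 55. That of Il1rl1 to Il1rap ran from -0.0252 to 0.1001. Panel genes past the adjusted threshold numbered 0, but 1 with positive-control scaling, which moved the median of all genes to -0.50, and 0 to 4 with 1 sample left out (4 without BDS 7). At an unadjusted p under 0.05 there were 41 lower and 3 higher genes, against 14 and 18 with TMM scaling, 14 and 13 with DESeq2's own size factors, 22 and 0 with the covariate, 20 and 0 without BDS 21, BDS 25 and BDS 55, and 22 to 87 and 2 to 10 with 1 sample left out. The cause of these changes was not tested. Il18r1, Il1r2 and Il1rn were too near background to compare.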

Other observations

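Single animals differed over the 5 tested genes within a group. Control 54 lay above the control mean for all 5 (median log2 difference 0.34), and control 9 lay below it for all 5 (median -0.37). In BDS 21, BDS 25, BDS 35 and BDS 43 all 5 genes were below the control mean, with medians of -0.15 to -0.50, and in BDS 55 4 of 5 were, Il18 being the exception at 0.30. In BDS 7 only Il1rl1 was below it, at -0.02, and Casp1 was highest at 0.46. BDS 35 and BDS 43 had scaling factors of 0.987 and 1.24, against 0.59 to 0.827 in BDS 21, BDS 25 and BDS 55.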
